A study of Mus musculus with 18 samples.

Results

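The ligands and receptors of axon guidance were examined in mouse cells given the transcription factors Ikzf1 and Ikzf4. Members were all genes of the authors' deposited fibroblast RNA table whose symbols name a semaphorin of classes 3 to 7, a plexin, a neuropilin, an Eph receptor, an ephrin, a Slit, a Robo, a netrin, Dcc or an Unc5 receptor. This rule, which uses names and no measured value, took 69 of 35734 genes, of which 35 were counted as ligands and 34 as receptors.

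Growing axons steer by cues on other cells or in the matrix. Secreted class 3 semaphorins bind neuropilins, which pair with plexins to signal, and most semaphorins of the other classes are membrane-bound and bind plexins directly. Ephrins are membrane-bound and signal through Eph receptors at cell contacts, with GPI-anchored A ligands and transmembrane B ligands. Slits act mostly as repellents through Robo receptors. Netrins attract through Dcc and repel through Unc5 receptors. Fibroblasts and glia use the same families in migration and in sorting cells at tissue borders.

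The RNA came from mouse embryonic fibroblasts (connective tissue cells grown from embryos) of the C57BL/6 line R26-M2rtTA, which carries the doxycycline-responsive transactivator in the Rosa26 locus. Fibroblasts in both groups received doxycycline-inducible lentiviral vectors for the neuronal factors Brn2 (gene Pou3f2) and Myt1l, and 3 of the 6 libraries also received Ikzf1 and Ikzf4. RNA was taken after 48 h of doxycycline, so the RNA changes below compare fibroblasts given Ikzf1 and Ikzf4 on top of Brn2 and Myt1l with fibroblasts given Brn2 and Myt1l alone. Chromatin of single nuclei was measured as multiome ATAC in 1 control library carrying mCherry and 1 library labelled Ikzf1/4. The control is retina labelled as Muller glia, the main glial cell of the retina, from C57BL/6 mice of the line GLAST-CRE ERT2 ; RosaYFP, in which a tamoxifen-inducible Cre under the Glast promoter marks these glia. The labels of the Ikzf1/4 library repeat its title in place of tissue, line and strain. Both are described with tamoxifen and 14 days, whereas the run names in the file headers carry 48 h, so the time point of these libraries is uncertain. No label gives the number of animals pooled.

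The fibroblast libraries held 34966344 to 44270426 estimated reads without and 38910839 to 41871989 with Ikzf1 and Ikzf4. In the authors' deposited table the log2 fold change was 7.76 for Ikzf1 and 8.54 for Ikzf4, while Pou3f2 (-0.05, adjusted p 0.689) did not pass the test and Myt1l, added to both groups, rose by 0.50 (adjusted p 0.0157). Fibroblast markers were all detected, with mean normalised counts of 269 to 228000 in the authors' deposited table, and 9 of 12 were lower with Ikzf1 and Ikzf4 (median log2 fold change -0.39). The authors' deposited table also held macrophage markers, all 8 with means of 115 to 2580, of which C1qa alone was called (-0.17, adjusted p 0.037). Endothelial markers had means of at most 132 in the authors' deposited table, with 4 of 8 under 10, and 0 of the 6 with a DESeq2 adjusted p were called, or had an unadjusted p under 0.05. Of the other marker lists, 1 of 3 epithelial (Epcam, 0.64), 0 of 4 neural crest, 0 of 2 muscle and 1 of 7 neuronal genes with an adjusted p were called in the authors' deposited table, the last being Tubb3 (-0.42). At an unadjusted DESeq2 p under 0.05 the neural crest and muscle lists each had 1 gene. The part of these markers in the members' changes was not tested. That table gives a mean over the 6 libraries and no value per library, so the summed level of a marker list per group cannot be given. In such bulk RNA, fewer cells of a type and less RNA per cell cannot be told apart. Nothing in the labels says that the replicates came from separate cultures, so p-values measure only the spread between these libraries, which may be technical.

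Guidance genes changed in both directions in the fibroblasts, and more of them fell than rose. The largest changes were a gain of the ephrin-A receptor Epha6 and of the secreted semaphorin Sema3d, and a loss of the Slit receptor Robo2 and of the semaphorin co-receptor Nrp1. A DESeq2 adjusted p was given for 65 members in the authors' deposited table, and 33 of them were under 0.05, 11 higher and 22 lower. Over all 16757 genes with an adjusted p in the authors' deposited table, 30.6% were called (15.3% higher and 15.4% lower). The family counts below are to be read beside these shares, and each rests on few members. The members' median log2 fold change was -0.11, beside -0.0004 over all genes tested, and their median absolute change was 0.21 beside 0.15. In both sets the lowest share of calls was at means under 100. At means of 1000 to 10000 the authors' deposited table called 18 of 25 members (72.0%) and 40.0% of all genes, and at means of 100 to 1000 it called 9 of 22 (40.9%) and 33.1%. At means of 10000 and over the authors' deposited table called 4 of 7 (57.1%) and 44.9%. Under a mean of 100, 2 of 11 members (18.2%) and 12.4% of genes were called in the authors' deposited table. Of the 65 tested members 15 were called and reached an absolute log2 fold change of at least 0.5, beside 10.2% of all genes tested. Epha8, Ephb1, Ntn5 and Robo4 had no adjusted p in the authors' deposited table, at means of 0.159 to 3.29. The 32 members tested and not called had log2 fold changes of -0.30 to 0.49. Nominal 95% limits computed from the authors' standard errors reached -0.68 for Efna1 and 0.91 for Efnb3, the widest reach either way. If the fold changes were shrunk, which is not stated, such limits may not cover 95%.

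**Figure D1:**
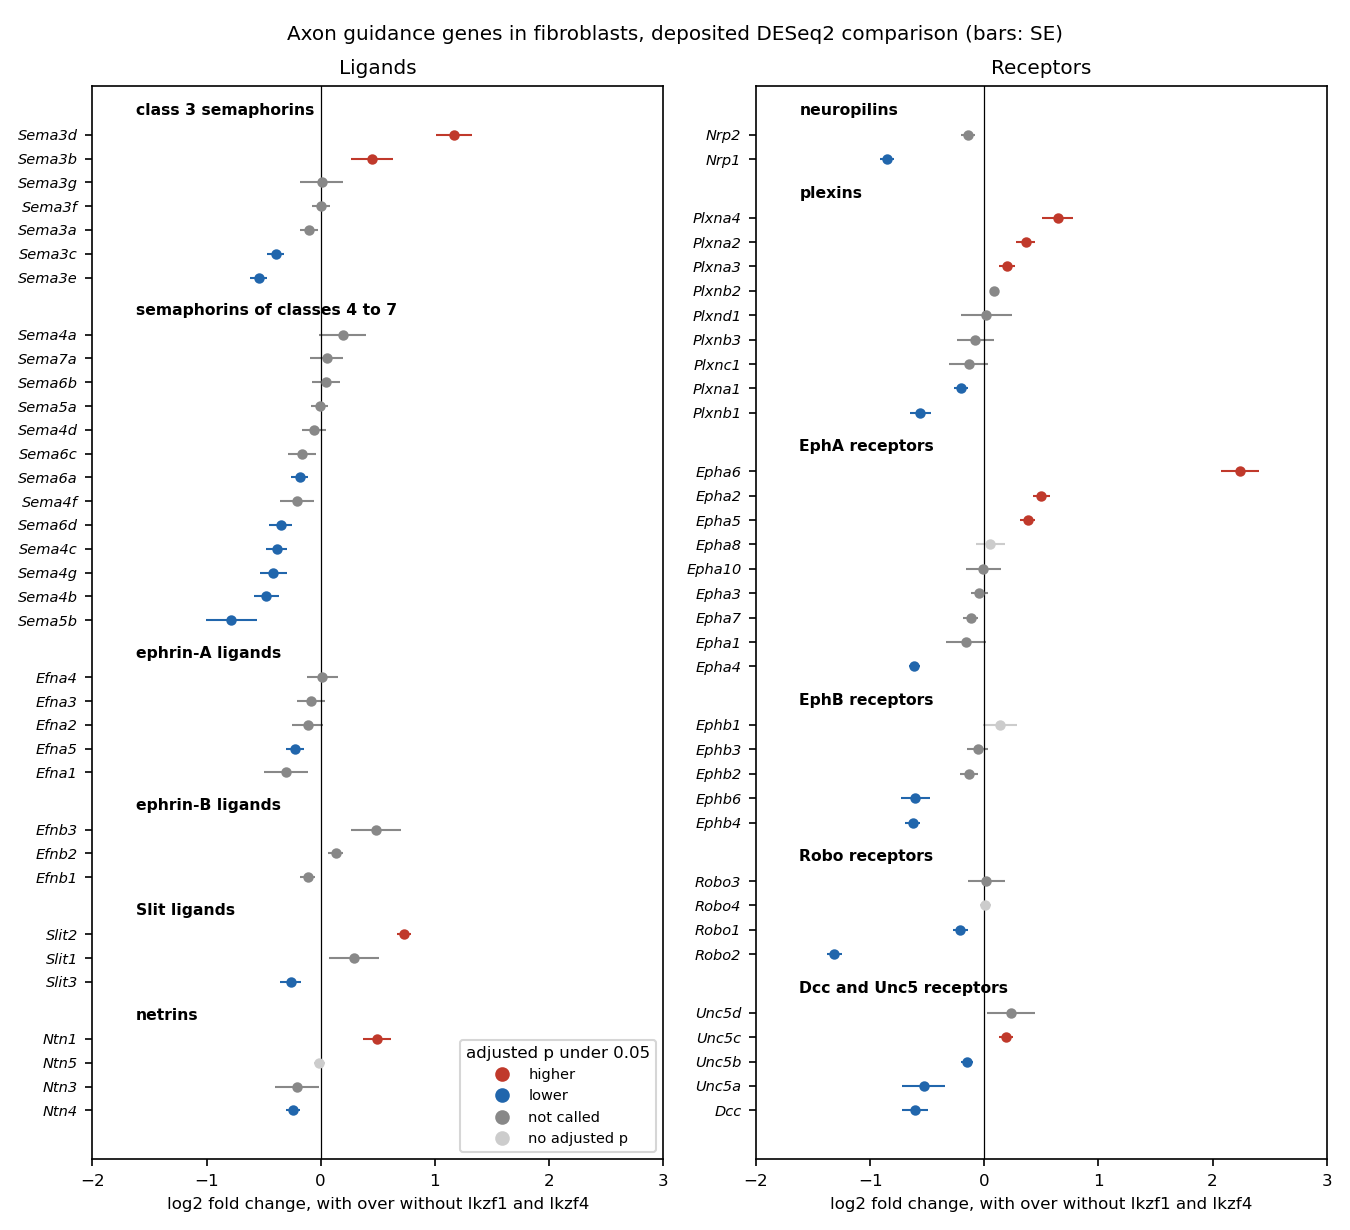
Log2 fold change (with over without Ikzf1 and Ikzf4, x axis) of each of the 69 members in the authors' deposited DESeq2 comparison, ligands left and receptors right, with bars of 1 standard error and colour for the call at an adjusted p under 0.05. Of the 13 semaphorins of classes 4 to 7, 0 were called higher, beside 15.3% of all genes tested. Epha6 (2.24) and Robo2 (-1.31) lie farthest from 0.

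**Figure D2:**
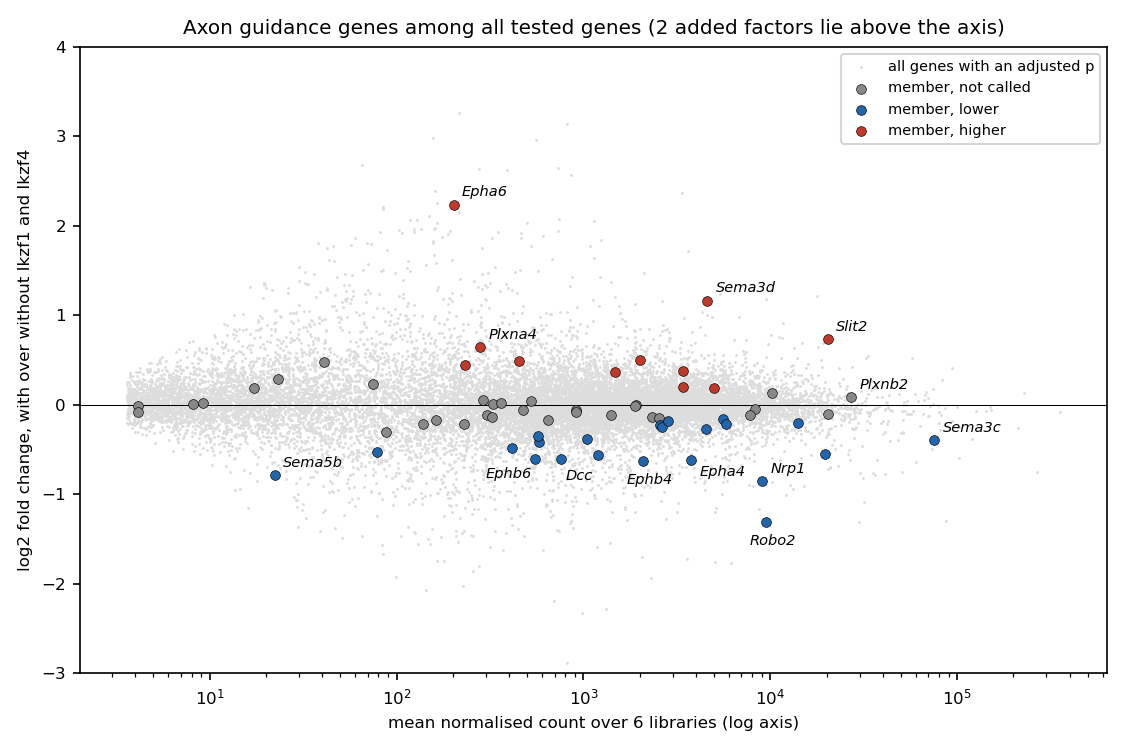
Log2 fold change (y axis) against mean normalised count over the 6 libraries (log x axis) for all genes with an adjusted p in the authors' deposited table (grey) and the members (coloured by call). Robo2 and Nrp1 fell at means of 9472 and 9028, while Epha6 rose at a mean of 202.

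Promoter sequences of some members with large changes, or with starts that differ between retinal classes below, are shown here so that the letters stand beside the values. They were picked by hand and are not the top of a ranking by change or by start. Nrp1 (-0.85), Sema5b (-0.78), Slit2 (0.73) and Plxna4 (0.64), not printed, changed more than Ephb4 (-0.63) and Epha4 (-0.61). Each is the 250 bases before an annotated start, 5′ to 3′ on the gene's strand, from the RefSeq table of build GRCm38.p6. Capitals mark GGGAA or its reverse complement TTCCC, the core letters of Ikaros-family sites. Starts of Robo2 are numbered by position on the chromosome. For Robo2 and Epha6 the stretch lies inside the gene's annotated span, because other transcripts start farther upstream, and for Ephb4, Epha4 and Sema3d it meets the end of that span.
Robo2 start 1 (chr16:74411826-74412075, minus strand): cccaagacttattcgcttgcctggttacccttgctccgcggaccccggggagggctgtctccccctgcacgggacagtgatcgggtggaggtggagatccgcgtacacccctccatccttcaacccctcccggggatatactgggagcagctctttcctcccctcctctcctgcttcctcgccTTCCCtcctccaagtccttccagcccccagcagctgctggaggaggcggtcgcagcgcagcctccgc
Robo2 start 2 (chr16:75092771-75093020, minus strand): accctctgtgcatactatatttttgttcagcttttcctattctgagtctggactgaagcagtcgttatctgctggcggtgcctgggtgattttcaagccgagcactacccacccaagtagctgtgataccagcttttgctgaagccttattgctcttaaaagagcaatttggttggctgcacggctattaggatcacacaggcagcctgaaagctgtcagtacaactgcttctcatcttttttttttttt
Epha6 (chr16:60605532-60605781, minus strand): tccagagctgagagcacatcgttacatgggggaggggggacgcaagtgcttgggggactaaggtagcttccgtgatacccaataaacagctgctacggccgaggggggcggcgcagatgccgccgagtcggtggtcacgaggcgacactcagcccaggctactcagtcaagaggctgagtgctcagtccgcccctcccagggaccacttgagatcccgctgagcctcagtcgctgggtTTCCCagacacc
Sema3d (chr5:12382916-12383165, plus strand): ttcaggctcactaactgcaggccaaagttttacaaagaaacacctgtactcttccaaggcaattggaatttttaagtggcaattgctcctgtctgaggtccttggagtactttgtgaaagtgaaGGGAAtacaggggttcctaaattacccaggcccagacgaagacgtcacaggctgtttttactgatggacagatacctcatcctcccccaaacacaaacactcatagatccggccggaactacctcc
Ephb4 (chr5:137349859-137350108, plus strand): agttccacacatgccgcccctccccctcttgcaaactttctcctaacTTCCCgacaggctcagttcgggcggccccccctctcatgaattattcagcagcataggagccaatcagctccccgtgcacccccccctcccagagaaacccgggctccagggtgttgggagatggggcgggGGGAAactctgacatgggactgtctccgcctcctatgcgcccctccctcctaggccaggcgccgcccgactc
Epha4 (chr1:77515089-77515338, minus strand): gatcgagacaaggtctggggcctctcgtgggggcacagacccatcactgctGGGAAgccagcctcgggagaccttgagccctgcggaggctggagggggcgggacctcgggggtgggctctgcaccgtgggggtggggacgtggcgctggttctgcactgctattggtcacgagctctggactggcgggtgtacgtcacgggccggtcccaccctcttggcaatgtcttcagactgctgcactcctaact

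Both genes that rose and genes that fell held the GGGAA core in these stretches. Robo2 start 1, Epha6, Sema3d and Epha4 held 1 match each and Ephb4 held 2, whereas Robo2 start 2 held none. Of starts not printed, the third of Robo2 held 2 and those of Nrp1 and Slit2 held 3 and 1. GC content ran from 44.8% at Robo2 start 2 and 46.8% at Sema3d to 66.0% at Epha4. In the 300-base entries (50 bases past the start included), 59 of the 69 members were matched, with 75 starts. GGGAA on either strand was present in 62.7% of the members' entries and in 62.7% of all 32851 entries. The share was 75.0% over the 8 entries of members called higher and 66.7% over the 24 of members called lower. ATGCAAA, the start of the octamer read by POU factors such as Brn2, was found on either strand in 0 of 75 member entries and in 4.63% of all entries. A match is a run of letters and not a site, and its absence says only that these letters are not in this window.

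Of the 7 secreted class 3 semaphorins, 2 rose, 2 fell and 3 were not called. Sema3d, a ligand of the neuropilin and plexin complex, rose by a log2 fold change of 1.17 (SE 0.16, adjusted p 6.88e-12) in the authors' deposited table, about 2.24 times its level without Ikzf1 and Ikzf4. Sema3e, which signals through plexin-D1 without needing a neuropilin, fell by 0.54 (SE 0.07, adjusted p 3.37e-12) in that same authors' deposited table. Sema3c, the family member with the highest mean normalised count (75275), fell by 0.39 (adjusted p 2.46e-06) in the authors' deposited table. Members named below that fall short of the size of 0.5, and are not the highest of their family, were chosen after their values were seen. Sema3b rose by 0.45, and Sema3a (-0.10), Sema3f (0.00) and Sema3g (0.01) were not called in the authors' deposited table.

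The semaphorins of classes 4 to 7, mostly membrane-bound, were called lower or not at all. Of 13 members, 6 fell, 0 rose and 7 were not called, and their median log2 fold change was -0.18. At an unadjusted DESeq2 p under 0.05 the count that rose was 0 as well. Over all genes tested 15.3% were called higher and 15.4% lower, and 13 members are few to set against these shares. Sema5b, a transmembrane repellent, had a log2 fold change of -0.78 (SE 0.22, adjusted p 0.00253) in the authors' deposited table, at a low mean of 22.2. Sema4b (-0.48), Sema4g (-0.41), Sema4c (-0.39) and Sema6d (-0.35) had smaller falls in the authors' deposited table. Sema6a, with the highest mean of the group (2821), was called at -0.18 (adjusted p 0.0477), close to the threshold, in the authors' deposited table. Values without a call ranged from -0.21 for Sema4f to 0.19 for Sema4a in the authors' deposited table.

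On the receptor side of the semaphorins, 1 of 2 neuropilins fell, and 3 plexins rose while 2 fell. Nrp1, which binds class 3 semaphorins and VEGF, fell by 0.85 (SE 0.06, adjusted p 8.49e-46) in the authors' deposited table, to 0.555 of its level. Its paralog Nrp2 had a value of -0.14 (adjusted p 0.0602) in the authors' deposited table, just outside the threshold. Of 9 plexins 3 were higher, all of the A subfamily that pairs with neuropilins: Plxna4 (0.64, SE 0.14, adjusted p 2.28e-05), Plxna2 (0.36) and Plxna3 (0.20), in the authors' deposited table. The remaining A plexin, Plxna1, fell by 0.20 in the authors' deposited table. Plxnb1, the receptor of Sema4d, fell by 0.56 (SE 0.09, adjusted p 1.46e-08), whereas Plxnb2, with the highest mean (27126), had a value of 0.08 (adjusted p 0.0732) in the authors' deposited table. Plxnd1, the receptor of Sema3e, was at 0.02 with 95% limits of -0.42 and 0.46 from its standard error in the authors' deposited table.

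Of the EphA receptors, 3 rose, 1 fell and 4 were not called. Epha6 rose by 2.24 (SE 0.17, adjusted p 3.15e-39) in the authors' deposited table, a 4.72-fold change at a mean normalised count of 202. Epha2, an Eph receptor of epithelia and of many migrating cells, rose by 0.50 (SE 0.08, adjusted p 2.33e-09) in the authors' deposited table, and Epha5 by 0.38. Epha4, which binds ephrins of both classes, fell by 0.61 (SE 0.05, adjusted p 6.08e-31) in the authors' deposited table. Epha3, with the highest mean of the EphA receptors (8262), had a value of -0.04 (adjusted p 0.741) in the authors' deposited table.

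Of the EphB receptors with an adjusted p, 2 of 4 fell and 0 rose, also at an unadjusted DESeq2 p under 0.05. By adjusted p, 15.3% of all genes tested were higher and 15.4% lower, and 4 receptors are few to set against these shares. Ephb4, the partner of ephrin-B2, fell by 0.63 (SE 0.07, adjusted p 2e-19), and Ephb6, which lacks kinase activity, fell by 0.60 (SE 0.12, adjusted p 1.18e-05) in the authors' deposited table. Ephb2, with the highest mean (2321), had a value of -0.13 (adjusted p 0.215) in the authors' deposited table. Among the ephrins 1 of 8 was called, and 3 had an unadjusted DESeq2 p under 0.05. Efna5 fell by 0.23 (adjusted p 0.0157) in the authors' deposited table, and Efnb2, the most counted ephrin (mean 10213), had a value of 0.13 (adjusted p 0.123) there. Efnb3 had the largest ephrin value, 0.49, at a mean of 40.7 and with no call in the authors' deposited table.

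In the Slit and Robo families Slit2 rose and Robo2 fell. Robo2 had the lowest value of all members, a fall of 1.31 (SE 0.07, adjusted p 1.48e-86) in the authors' deposited table, to 0.403 of its level. Robo1 fell by 0.21 in the authors' deposited table, and Robo3, which in mammals binds Slits poorly, was at 0.02 with a mean of 9.22. Slit2 rose by 0.73 (SE 0.06, adjusted p 2.06e-32) in the authors' deposited table, to 1.66 times its level, at a mean of 20241. Slit3 fell by 0.26 and Slit1 (0.29, mean 23.3) was not called in the authors' deposited table.

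Of the netrins 1 rose and 1 fell, and of their receptors 1 rose and 3 fell. Ntn1, the classical attractant of commissural axons, rose by 0.496 (SE 0.12) in the authors' deposited table. Ntn4, a basement membrane netrin with the highest mean of the family (2626), fell by 0.24 (adjusted p 0.000335) in the authors' deposited table. Dcc fell by 0.61 (SE 0.11, adjusted p 8.47e-07) and Unc5a by 0.53 (SE 0.19, adjusted p 0.0214) in the authors' deposited table. Unc5b, with the highest mean of the receptors (5556), fell by 0.15 (adjusted p 0.0105), and Unc5c rose by 0.19 in the authors' deposited table. Unc5d (0.23, mean 74.9) was not called.

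Counted by role, 4 ligands rose and 11 fell of 34 tested, and 7 receptors rose and 11 fell of 31, beside 15.3% higher and 15.4% lower over all genes. Called at an absolute change of at least 0.5 were 4 of the 34 ligands and 11 of the 31 receptors, beside 10.2% of all genes.

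Genes beyond these families were counted from lists, to be read beside the 15.3% higher and 15.4% lower over all genes. Of 49 intracellular effectors of guidance receptors, 8 rose and 11 fell, with a median log2 fold change of -0.01 in the authors' deposited table. The largest called changes were in collapsin response mediators, cytosolic proteins that relay semaphorin signals: Dpysl4 (-1.22), Dpysl5 (1.08) and Dpysl3 (-0.77) in the authors' deposited table. The same family's Dpysl2 (-0.05, adjusted p 0.682) and Crmp1 (0.05, adjusted p 0.739) were not called in the authors' deposited table. Of 23 tested genes among 24 other cues and receptors, 4 rose and 5 fell (median -0.09). Ntng1, a GPI-anchored netrin-G, rose by 1.63 (adjusted p 1.89e-52) in the authors' deposited table, and Cdon (0.67) and Gpc3 (0.64) rose as well. Of 14 adhesion partners, 6 rose and 2 fell (median 0.04), and contactins, neural adhesion molecules, had the largest values in the authors' deposited table. Cntn6 fell by 2.07, while Cntn3 rose by 1.60 and Cntn5 by 1.12, at means of 144, 46.4 and 30.1 in the authors' deposited table.

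In the retinal multiome, accessibility of a member was taken as unique fragments over its gene window (the gene and 2 kb on both sides) in nuclei that passed quality filters, scaled to 1000000 fragments of those nuclei (CPM). Within a cluster or class the scaling is to the fragments of its own nuclei. The control gave 1874 nuclei with a median of 6223 fragments and the Ikzf1/4 library 692 with a median of 10946.5, and 3 nuclear barcodes occurred in both. With 1 library per group there is no test. Intervals below are exact 95% intervals that cover counting error only, and differences compare these libraries, not the conditions. Fragments on chromosome X were at 0.774 of the control share in the Ikzf1/4 library (0.769 to 0.778), which bears on Efnb1, Plxna3 and Plxnb3.

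Over all nuclei, 68 of 69 members had at least 200 fragments. The ratio of Ikzf1/4 to control passed 1.5-fold either way in 3 members, all lower, and in 4.42% of 14707 protein-coding windows, so the members' share of 4.41% was at the background. The median ratio was 0.94 over the members and 1.08 over all windows. The interval lay above 1 for 14 members and below 1 for 26, beside 5345 and 1915 of the 14707 windows. Member windows are long, with a median of 109 kb beside 33.8 kb among windows with at least 200 control fragments. The libraries also differed in median enrichment at gene ends (17.9 in the control, 21.1 with Ikzf1/4) and in read pairs per unique fragment (1.96 and 4.59). No background of matched length was counted for these ratios or those within clusters, and the part of length and library quality was not tested.

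Semaphorin windows stood at both ends of the range of gene-window ratios. Sema3c had 22.3 CPM in the control and 12.6 with Ikzf1/4, a ratio of 0.566 (0.451 to 0.706). Sema3d had 30.1 and 18.9, a ratio of 0.627 (0.520 to 0.753). Plxna4 had 177 and 117, a ratio of 0.658 (0.611 to 0.708). These are the 3 members past 1.5-fold. With every barcode counted in place of nuclei alone, their ratios were 0.868, 1.084 and 0.875, and none of the 3 passed the fold. Unc5d (0.696), Ntn4 (0.705), Unc5c (0.723), Epha5 (0.735) and Ephb4 (0.742) followed. Over all barcodes these 5 turned direction, to 1.017, 1.097, 1.031, 1.02 and 1.109 in this order, and at 1 kb around the start Epha5 (1.128) and Unc5c (1.055) did so too. At the upper end Sema3f had 81.6 CPM in the control and 114 with Ikzf1/4, a ratio of 1.39 (1.28 to 1.52). Plxna2 (1.38), Sema3g (1.37), Epha10 (1.33), Efna2 (1.31), Sema6c (1.27), Sema3b (1.21) and Sema7a (1.19) came next.

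**Figure D3:**
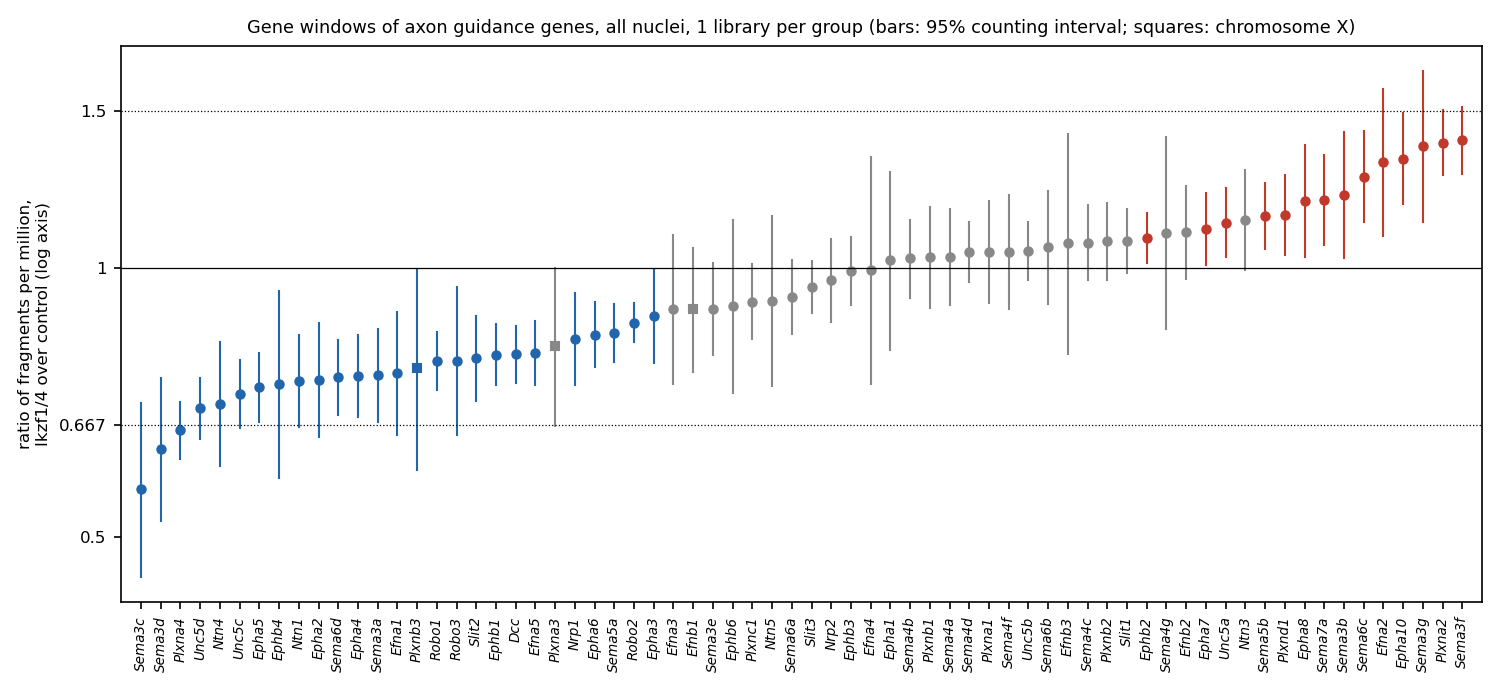
Ratio of CPM (Ikzf1/4 over control, log y axis) in the gene windows of the 68 members with at least 200 fragments, ordered by ratio, with 95% counting intervals and dotted lines at 1.5-fold; blue and red mark intervals below and above 1. Ratios run from 0.566 for Sema3c to 1.39 for Sema3f, and 3 members lie under the lower line.

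The libraries held different shares of each class of nuclei. Nuclei of both were clustered together on gene windows with the members' windows left out, and clusters were named from marker lists by a threshold set after the clusters were seen. Clusters 1 and 3 were named Muller glia-like, and together held 633 of the 1874 control nuclei, although the library is labelled as Muller glia. In both clusters 8 of 8 detected genes of the Muller glia list were higher than in the other nuclei. The median log2 fold of that list was 1.69 in cluster 1 and 1.77 in cluster 3. The next lists stood at 0.44 (ganglion) and 0.10 (endothelial). The libraries are compared by cluster number here, because cluster 3 has Pax6, of the amacrine list, and no gene of the Muller glia list among its 10 leading windows. Cluster 1, which has no marker of any list there, made up 19.9% of the control (18.1 to 21.7, exact binomial) and 8.24% of the Ikzf1/4 library (6.30 to 10.5). Cluster 3 made up 13.9% (12.4 to 15.6) and 10.5% (8.36 to 13.1). Rod-like nuclei were 5.07% and 19.2%, cone-like 13.7% and 18.9%, bipolar-like 6.30% and 17.1%, and microglia-like 6.24% and 2.60% (117 and 18 nuclei). Another 34.9% of control and 23.4% of Ikzf1/4 nuclei stayed unnamed. The part of this mix in the ratios over all nuclei was not tested, and ratios within clusters are given next.

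Ratios within clusters were taken where each library held at least 50 nuclei and the member at least 200 fragments, with genes chosen after their values were seen. Clusters are again kept apart by number. The minimum is on the sum of both libraries, so a window could enter or drop out through the library where it is high or low. The counts are therefore repeated with the minimum set on the control rate, a choice made after seeing the data. In cluster 1 (Muller glia-like, 372 and 57 nuclei) 1 of 38 members passed 1.5-fold, beside 5.44% of all windows, and 1 of 39 by the control rate (5.09%). That member was Epha3, with 71.9 CPM in the control and 41.8 with Ikzf1/4, a ratio of 0.581 (0.379 to 0.862). Sema5a stood at 1.38 (1.20 to 1.59), Sema6a at 1.33 (1.10 to 1.59) and Plxna4 at 0.714 (0.584 to 0.865) in the same cluster. In cluster 3 (261 and 73 nuclei) 3 of 17 members passed, beside 15.0% of all windows, and 3 of 18 by the control rate (13.9%). Sema6a was again higher, at 1.62 (1.29 to 2.03), and Plxna4 (0.614) and Epha6 (0.662) were lower. Some ratios over all nuclei did not hold in clusters 1 and 3. Unc5c, at 0.723 over all nuclei, stood at 1.129 (0.952 to 1.333) and 1.139 (0.922 to 1.401). On fewer than 200 fragments, Sema3d (0.627 over all nuclei) stood at 1.022 and 1.281. Plxna2 (1.38 over all nuclei) stood at 0.732 and 0.834, also on fewer than 200. The intervals of Unc5c, Sema3d and Plxna2 in these clusters include 1.

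In cluster 2 (cone-like, 257 and 131 nuclei) 3 of 29 members passed, beside 2.88% of all windows, and 4 of 30 by the control rate (2.65%), with Ntn1 (0.611) added. Unc5d had 131 CPM in the control and 53.2 with Ikzf1/4, a ratio of 0.405 (0.315 to 0.517). Epha6 (0.656) was also past the fold, Robo2 stood at 0.681 (0.592 to 0.782), and Sema4d was higher at 1.54 (1.249 to 1.90). In cluster 4 (bipolar-like, 118 nuclei in each library) 3 of 15 members passed by the summed minimum, beside 6.28% of all windows. Robo1 (0.600) and Dcc (0.603) were lower. By the control rate 3 of 15 members passed, all lower, with Unc5c (0.642) as the other, beside 4.31% of all windows. Sema5b stood at 1.73 there (1.28 to 2.39), on 57 control and 168 Ikzf1/4 fragments, and reached the minimum only through the Ikzf1/4 library. In cluster 5 (rod-like, 95 and 133 nuclei) 1 of 5 members passed by the summed minimum, beside 3.89% of all windows, and 0 of 4 by the control rate (3.09%). Ephb3 stood at 1.76 (1.24 to 2.54) on 41 and 164 fragments, again reaching the minimum only through the Ikzf1/4 library. Unc5d, with 53 and 31 fragments, reached neither minimum and stood at 0.257 (0.160 to 0.408). Plxna2 stood at 0.892 (0.746 to 1.064) in cluster 2 and at 1.254 (1.011 to 1.564) in cluster 5. On fewer than 200 fragments, Plxna2 stood at 1.074 in cluster 4, and Unc5c at 0.514 in cluster 2 and 1.066 in cluster 5. Sema3d, also on fewer than 200, stood at 0.113, 0.643 and 0.088 in clusters 2, 4 and 5.

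Within the control library, 33.3% of member windows were high in the pooled Muller glia-like nuclei. Members were low in the 4 other classes more often than gene windows in general. Each class was set against all other control nuclei, so the 4 other classes were compared with nuclei that include the Muller glia-like ones. High values in Muller glia-like nuclei thus lower the ratios of the 4 other classes, and the counts are not independent. Of the 63 members with at least 200 control fragments, 21 (33.3%) were at least 1.5-fold higher in Muller glia-like nuclei than in the other control nuclei, against 8.54% of 13112 windows, and 10 were at least 1.5-fold lower, against 23.9%. The median ratio was 1.26 for members and 0.823 for all windows. Each of these clusters alone was set against all other control nuclei, the other Muller glia-like cluster included. Cluster 1 alone had 23 members higher (36.5%, beside 8.24% of all windows) and 9 lower (14.3%, beside 16.7%). Cluster 3 alone had 14 higher (22.2%, beside 6.16%) and 13 lower (20.6%, beside 33.5%). The 21 of the pooled class comprised 11 ligands and 10 receptors. With the minimum set on the rate in the other nuclei, 20 of 62 members were higher (32.3%, beside 7.20%), and the 1 left out was Ephb4. In the Ikzf1/4 library, 21 of the 23 members of cluster 1 and 14 of the 14 of cluster 3 were at least 1.5-fold higher as well, beside 81.4% and 83.9% of all windows that were higher in these clusters of the control. Nuclei of both libraries were clustered together, so this repeat is not independent. In rod-like nuclei 4 members were higher (24.6% of all windows) and 41 lower (19.7%). Cone-like nuclei had 5 higher (16.1%) and 30 lower (12.4%). Bipolar-like nuclei had 6 higher (6.43%) and 24 lower (15.3%), and microglia-like nuclei 9 higher (17.4%) and 35 lower (19.4%). Member genes are long, with a median window of 109 kb beside 33.8 kb over all windows. Windows of 50 to 500 kb were also counted, a range chosen after seeing the data. There 13 of 28 members (46.4%) were higher in the pooled Muller glia-like nuclei, beside 11.4% of all such windows. In that range 14 of the 28 were higher in cluster 1 alone, beside 10.7% of all such windows. In cluster 3 alone 8 of the 28 were higher, beside 8.15%. Lower by that fold were 85.7% of the 28 members in rod-like nuclei (31.1% of all such windows), 57.1% in cone-like (18.2%), 35.7% in bipolar-like (14.5%), 75.0% in microglia-like (28.6%) and 7.14% in Muller glia-like nuclei (18.9%).

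Among members with at least 50 fragments in a class, the minimum for those named in this and the next paragraphs, the 5 highest ratios in nuclei of clusters 1 and 3 pooled were those of Ephb4, Unc5c, Sema6a, Sema5a and Epha4. Ephb4 had 34.2 CPM there and 8.21 in other control nuclei, a ratio of 4.16 (3.12 to 5.58), on 136 of its 213 control fragments. Ephb4 reached the minimum of 200 only through these nuclei. Within 1 kb of its start its ratio was 13.1 (7.64 to 23.9). Unc5c had 230 and 68.7 (ratio 3.35), and Sema6a 167 and 49.8 (ratio 3.34). Sema5a had 290 and 90.8, a ratio of 3.20, with 5.65 at its start. Epha4 had 144 and 52.2, a ratio of 2.75 (2.43 to 3.11). In cluster 1 alone, set against all other nuclei of the library, Ephb4 stood at 4.01 (3.04 to 5.30) in the control and at 2.61 (1.498 to 4.33) in the Ikzf1/4 library. In cluster 3 it stood at 1.47 (0.955 to 2.18) and 2.60 (1.40 to 4.52). The nuclei set against a single cluster include the other Muller glia-like cluster, so these ratios are not those to nuclei outside both. In the control Ephb4 had 22.35 CPM in cluster 3 and 39.85 in cluster 1, beside the 8.21 outside both. Unc5c, Sema6a, Sema5a and Epha4 stood at 2.11 to 2.80 in cluster 1 and 1.95 to 2.31 in cluster 3 of the control. Their range in the Ikzf1/4 library was 2.20 to 3.82 in cluster 1 and 1.93 to 3.61 in cluster 3.

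Rod-like and cone-like nuclei both had high values of Plxna2, a receptor of class 6 semaphorins. Sema3f, the neuropilin-2 ligand, had 232 CPM in rod-like nuclei and 74.8 in other control nuclei, a ratio of 3.10 (2.57 to 3.72). Plxna2 had 198 in rod-like nuclei (ratio 2.43, and 3.93 in nuclei with at least 10000 fragments) and 146 in cone-like nuclei (ratio 1.959). Epha10, an Eph receptor without kinase activity, had 111 CPM in cone-like nuclei and 33.4 in others, a ratio of 3.32 (2.81 to 3.91). In rod-like nuclei Sema4c (1.30), Unc5a (1.29) and Ephb2 (1.003) came next among members with at least 50 fragments, with intervals that include 1. In nuclei with at least 10000 fragments Sema4c turned to 0.846 and Ephb2 to 0.862. On fewer fragments (46 and 40), Sema6c stood at 1.73 (1.252 to 2.34) and Ntn3 at 1.705 (1.20 to 2.35). In cone-like nuclei Unc5a (1.91), Sema7a (1.81) and Sema6c (1.60) followed. In the Ikzf1/4 library Plxna2 stood at 2.56 in rod-like and at 1.12 (0.955 to 1.30) in cone-like nuclei, and Epha10 at 2.99 in cone-like nuclei. Each ratio is to the other nuclei of its own library, and rod-like nuclei were 5.07% of the control and 19.2% of the Ikzf1/4 library. Plxna2 itself had 146 CPM in control and 130.5 in Ikzf1/4 cone-like nuclei, a ratio of 0.892 (0.746 to 1.064).

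In bipolar-like nuclei Unc5d (1.78), Sema3e (1.71), Robo2 (1.68), Epha7 (1.68) and Slit2 (1.44) were the highest with at least 50 fragments. Ntn5 (1.62) and Sema3g (1.53), on 21 and 20 fragments with intervals that include 1, and Ntn4 (1.48, on 43) lay above Slit2. In nuclei with at least 10000 fragments Slit2 turned to 0.932. Robo2 had 508 CPM there and 302 in other control nuclei, over a window of 1559 kb. Microglia-like nuclei were highest in Sema6b (2.50), both neuropilins, with Nrp2 at 2.29 (1.92 to 2.72) and Nrp1 at 2.07 (1.71 to 2.50), Sema4d (2.01) and Plxnb2 (2.01). With 18 nuclei in the Ikzf1/4 library, Nrp1 stood at 4.66 (3.43 to 6.22) and Nrp2 at 1.30 (0.799 to 2.01) in that class. These 2 ratios are to the other nuclei of that library, whose mix of classes differs from the control.

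**Figure D4:**
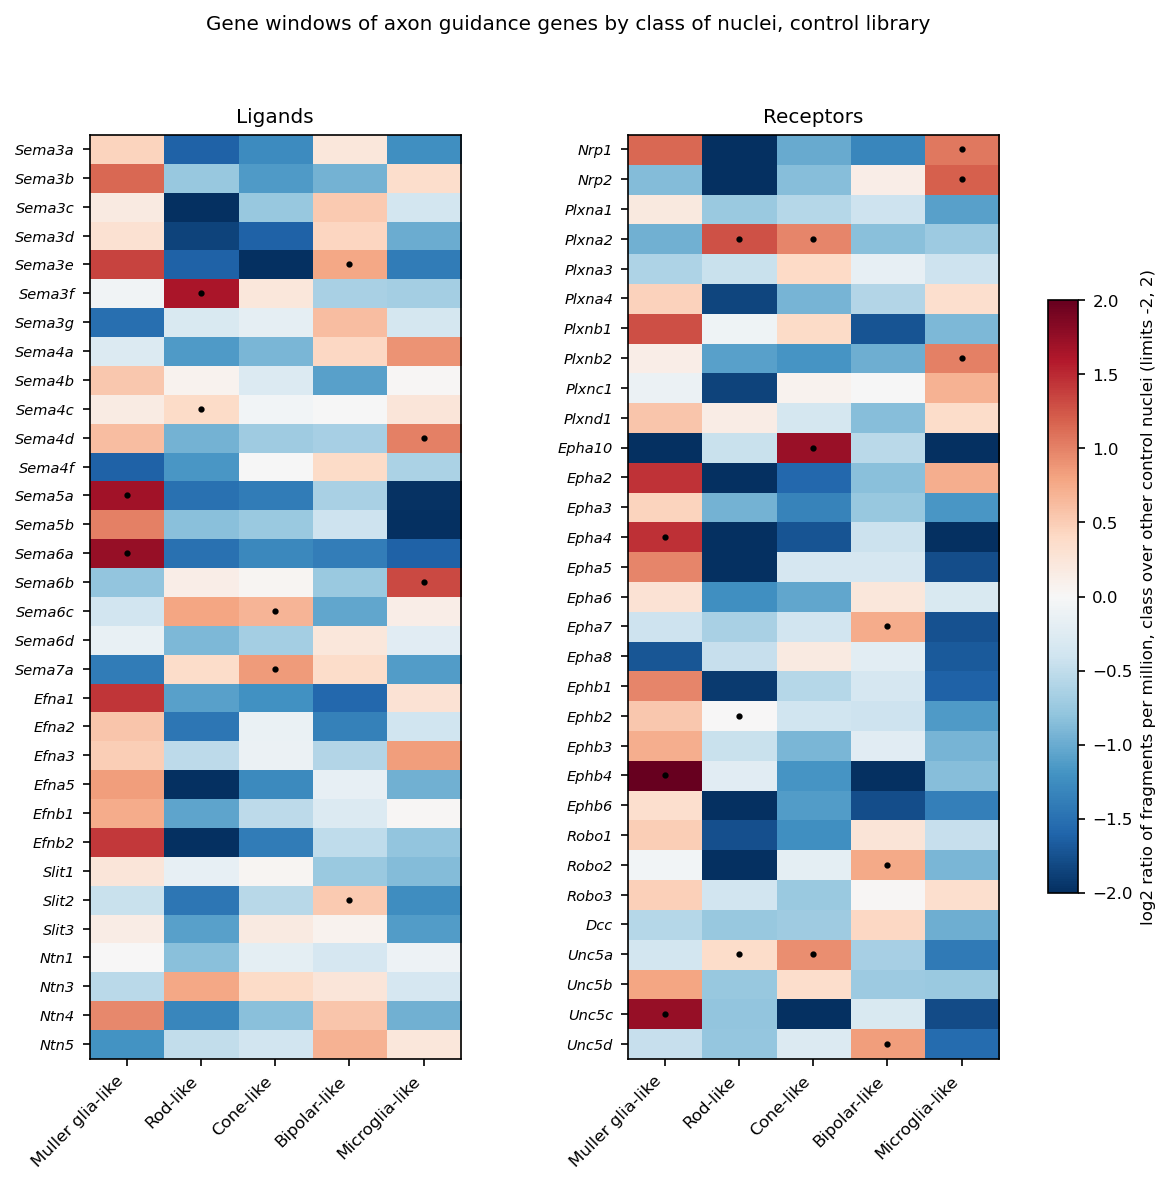
Log2 ratio of CPM in each class of nuclei over all other control nuclei (colour, limits -2 and 2) for the 32 ligands and 31 receptors with at least 200 control fragments. Dots mark the 5 highest ratios of each class among members with at least 50 fragments in it; the Muller glia-like column is mostly red and the rod-like column mostly blue.

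Starts were counted on fewer fragments than windows. The Ephb4 start had 27.2 CPM in cluster 1 (73 fragments) and 12.3 in cluster 3 (16) of the control. It had 1.37 in cone-like and 1.24 in bipolar-like nuclei, and 0 fragments in rod-like nuclei, which allows up to 6.34 with an exact Poisson interval. In the Ikzf1/4 library it had 18.7 (9.97 to 32.0) in cluster 1 and 18.6 (8.94 to 34.3) in cluster 3. The Epha4 start had 29.05 and 29.3 in clusters 1 and 3 of the control, and at most 8.70 in the other classes. In the Ikzf1/4 library it had 36.0 and 31.7 in these clusters. In control nuclei Robo2 start 1 had 8.57 in cluster 1, 3.08 in cluster 3 and 3.66 in cone-like nuclei, whereas start 2 had 2.61, 3.08 and 9.15. The start of Nrp1 had 14.5 in cluster 1, 11.6 in cluster 3 and 19.2 in microglia-like control nuclei, and 2.74 in cone-like nuclei. Starts of Slit2, Sema3d and Epha6 had at most 8.70 in any control class, and their intervals overlap between most classes.

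**Figure D5:**
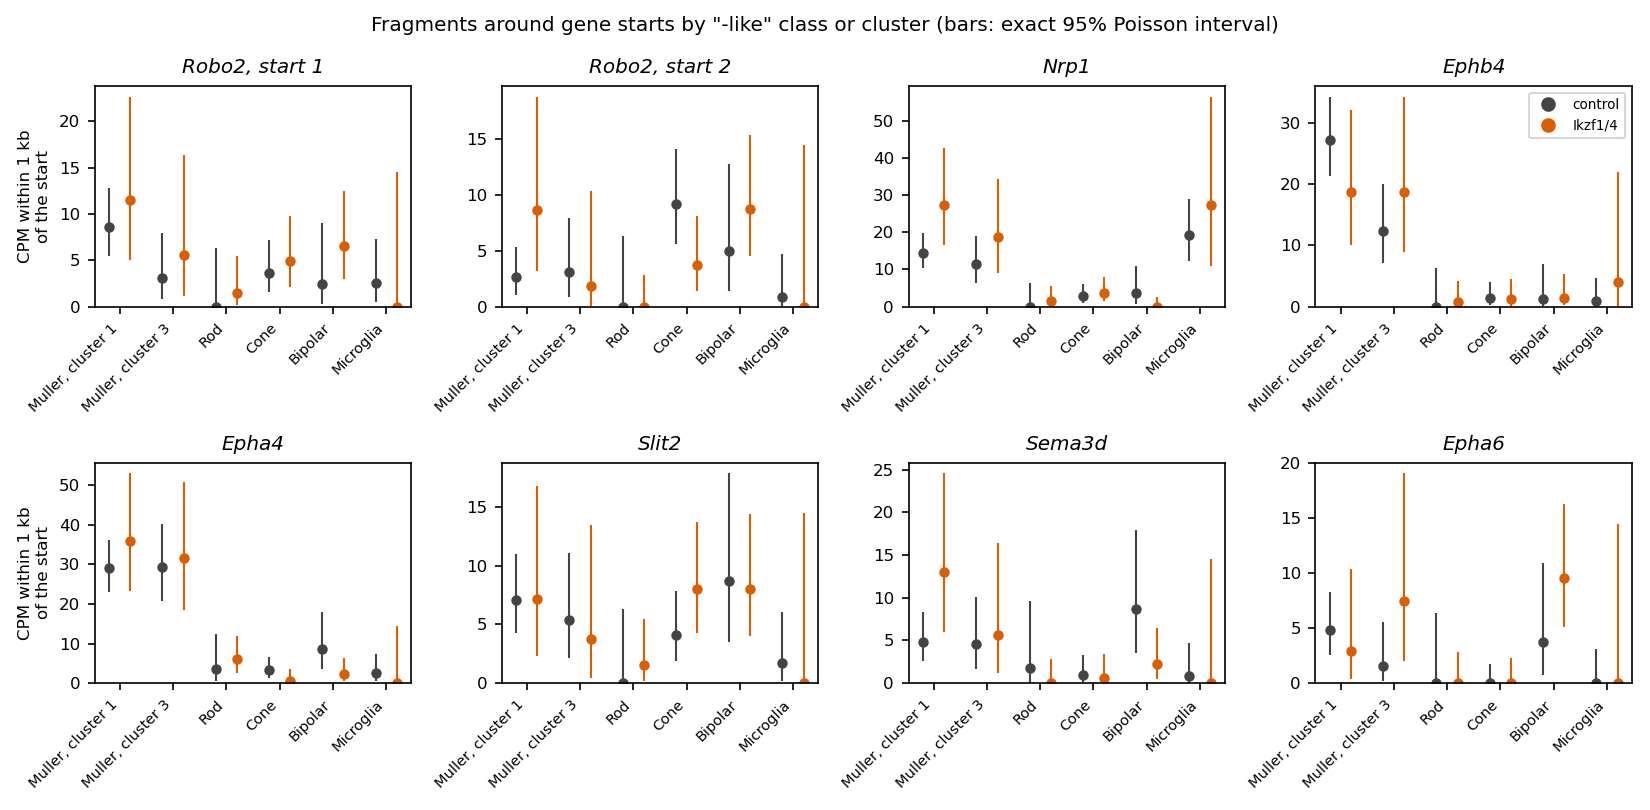
CPM (unique fragments) within 1 kb of a start (y axis, from 0, scale differs by panel) in Muller glia-like clusters 1 and 3 and in 4 other classes of nuclei, for the control (grey) and Ikzf1/4 (orange) libraries, with exact 95% Poisson intervals, 1 library per group. The Epha4 start stands at 29.05 or above in both clusters of both libraries, and the Ephb4 start at 12.3 or above.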

How the data were processed

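The members and gene lists were chosen with earlier results of these data known. Per the labels, fibroblast RNA was poly(A)-selected and quantified with salmon. The deposited estimated counts per transcript served here only for depth: no table used here pairs transcripts with genes, so the planned gene test was not run. Gene results come from the authors' deposited DESeq2 table. It holds, per the file headers, the mean normalised signal of each gene, its log2 fold change and SE, a Wald score and the authors' p-values, raw and adjusted. The SE had a median of 0.049 at means under 2 and 0.172 between 100 and 200, so the fold changes may be shrunk. In that case limits computed from the SE may be too narrow at low means. Where the authors gave no adjusted p, a gene was left out of counts.

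Fragment files of the multiome were made with cellranger-arc 2.0.1 on mm10, per the file headers, and the deposited lines give unique fragments with counts of read pairs. A barcode was kept as a nucleus from 3000 fragments and 4-fold enrichment at gene ends upwards, unless it lay in the top 1% of its library by fragments. No doublet caller was run. Nuclei were clustered by latent semantic indexing and Leiden (leidenalg 0.10.2, resolution 1.0, 15 neighbours, 30 components). A cluster took a name where the median log2 fold of a marker list was at least 1, led the next list by 0.5 and rested on at least 3 markers. Ratio intervals are exact conditional binomial intervals. The counting and ratio steps were tested on simulated data.

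Named in the RNA are members with an adjusted p under 0.05 and an absolute log2 fold change of at least 0.5, and the highest mean of each family. Multiome names are the 8 highest and 8 lowest ratios with an interval that excludes 1, and the 5 highest per class with at least 50 fragments in it. From the other lists, the 3 called genes with the largest changes are named. The RNA calls were repeated at an adjusted p of 0.01, with a log2 fold change over 1, at means of at least 100 and with adjustment over all genes. The multiome ratios were repeated with 10000 fragments per nucleus, other scaling, other windows and all barcodes. Fibroblast ATAC peaks were not used here, since their build is not stated, and neither single-cell RNA nor multiome RNA was analysed here.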

Additional observations from a re-analysis of the deposited data

How the results depend on the processing

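In the fibroblast RNA, requiring an absolute log2 fold change over 1 left 3 called members, 2 higher and 1 lower, and 2.15% of all genes. A threshold of 0.01 left 26 members (22.5% of all genes), a mean of at least 100 left 31 (37.5%) and adjustment over every gene with a raw p left 31 (19.3%). Unc5b, Slit3, Efna5, Plxna3, Unc5a, Sema3b and Sema6a lost their call at 0.01, and Sema3b and Sema6a also under adjustment over every gene. In the multiome, the 3 members past 1.5-fold became 5, all lower, when scaled to fragments in gene windows (7.35%, beside 4.81% of all windows). Without the 2 kb on both sides they became 6, of which 2 were higher (9.38%, beside 5.62%). At 1 kb around the gene start 2 passed, both higher (6.06%, beside 5.21%), and over all barcodes 1, lower and none of the 3 (1.45%, beside 2.06%). At 1 kb around the gene start, the ratio reversed to 1.128 for Epha5 and to 1.055 for Unc5c. Over all barcodes it reversed to 1.02 for Epha5, 1.109 for Ephb4, 1.097 for Ntn4, 1.084 for Sema3d, 1.031 for Unc5c and 1.017 for Unc5d. With at least 10000 fragments per nucleus, class ratios reversed to 0.862 for Ephb2 and 0.846 for Sema4c in rod-like nuclei and to 0.932 for Slit2 in bipolar-like nuclei. The cause was not tested. Windows of 50 to 500 kb, an alternative chosen after seeing the data, held fewer members by construction, and the numbers at least 1.5-fold higher were 13 in Muller glia-like (46.4%, beside 11.4% of such windows), 1 in rod-like (3.57%, 18.9%), 2 in cone-like (7.14%, 13.9%), 2 in bipolar-like (7.14%, 8.26%) and 4 in microglia-like nuclei (14.3%, 14.6%). The Muller glia-like counts from single clusters and the fragment minimum set on the rate in other nuclei were likewise added after seeing the data, and the latter left the counts of the 4 other classes at 4, 5, 6 and 9.

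No paired analysis was possible because no table used here pairs the transcripts of the per-library estimated counts with genes, so gene values come only from the authors' comparison, and the multiome has 1 library per group. For the same reason the edgeR test on gene counts, its DESeq2, scaling, filter and block alternatives, and leaving out each library were not run. One multiome library per group limits every difference between them, and windows of few fragments, such as single starts in a class of nuclei, have wide counting intervals.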
